A study of Gallus gallus with 24 samples.

Results

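The enzymes that carry squalene to cholesterol were followed in chicken liver across hatch and the first meals. The set was defined by name: every probe set of the array whose platform annotation gave 1 of 9 gene symbols (FDFT1, SQLE, LSS, CYP51A1, MSMO1, NSDHL, DHCR7, SC5D and EBP). It took in 13 of the 38439 probe sets tested and 8 of 13009 named genes, and EBP, the isomerase that moves the double bond in the second ring, was not analysed here. Where a gene had several probe sets, the one with the highest mean over all arrays stands for the gene, and the others are given beside it.

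The livers came from Ross x Ross broilers, a meat-type cross, which the study's methods describe as male by the presence of testes. They were taken at embryonic days E16, E18 and E20 in ovo and on days D1, D3 and D9 after hatch. Each age had 4 livers with 1 Affymetrix array per liver, 24 arrays in all. D1 hatchlings had water and had not been fed, while D3 and D9 hatchlings had a starter ration and water at will. By the study's methods, chicks kept past D1 received a Marek's disease vaccine before they moved to the brooder. The labels and the study's methods differ on how long D1 chicks were held after hatch, and the stage label reads E16 also for E18 and E20 livers, so that age was taken from the sample titles. The study's methods describe 4 hybridization days, each with 1 liver of each age. The replicate number of the sample titles, which name no day, was taken here as that day. All values are log2 intensities after robust multi-array averaging (RMA), every ratio is the later age minus the earlier age, which is the opposite of the study's own direction, and a gene was called where limma gave an adjusted p of 0.05 or less and a log2 ratio of 0.75 or more in size.

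Cholesterol is built from acetyl-CoA through mevalonate and farnesyl diphosphate, and squalene is the first intermediate that belongs to the sterol branch alone. FDFT1 joins a pair of farnesyl diphosphates into squalene, SQLE adds an oxygen to it, and LSS closes the chain into lanosterol, the first sterol. The remaining enzymes trim methyl groups (CYP51A1, MSMO1, NSDHL) and rearrange double bonds (EBP, SC5D, DHCR7). In vertebrates the genes of this pathway are targets of SREBF2, a transcription factor released from the endoplasmic reticulum when membrane sterol is low. The embryo draws lipid, cholesterol included, from the yolk, and the fed hatchling lives on its ration once the yolk is used up.

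The arrays had medians between 5.43 and 5.55, and single values lay between 3.05 and 15.24. The mean over all arrays was below 4.43 for 25% of probe sets, and this level was used here as a guide to background. Of 10 hepatocyte markers measured, all were above that guide, and ALB, the main plasma protein made by hepatocytes, stood at 14.89 to 15.24 on every array. One embryo array, E18 replicate 2, carried a high level of HINTW (12.17, with 6.05 as the next highest). The study's methods describe the livers as male, and this HINTW level is at odds with that. The sex of this liver was not tested here beyond the study's own check. One hatchling array, D9 replicate 1, carried a high level of NPPA, a hormone of the heart (8.11, with 5.23 next). Results that changed without this pair of arrays are named where they occur.

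Transcripts of 7 of the 8 enzymes were more abundant in fed D3 livers than in unfed D1 livers, by 2.57-fold to 27.0-fold. FDFT1, SQLE, LSS, MSMO1, NSDHL, DHCR7 and SC5D were called higher at D3 than at D1, against 2.63% of all genes called higher in that comparison. The median log2 ratio of the 8 genes was 3.78, beside -0.01 over all 13009 genes. CYP51A1 was the exception, with a log2 ratio of 0.08. Ranked by the D3 vs. D1 ratio among 13009 genes, SQLE was 7th, NSDHL 12th, MSMO1 13th, LSS 14th, DHCR7 18th, FDFT1 21st, SC5D 121st and CYP51A1 4365th. Since RNA came from whole liver, more cells of a type and more RNA per cell cannot be told apart. Feeding, age, vaccination and rearing conditions all changed between D1 and D3 and cannot be told apart either.

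**Figure D1:**
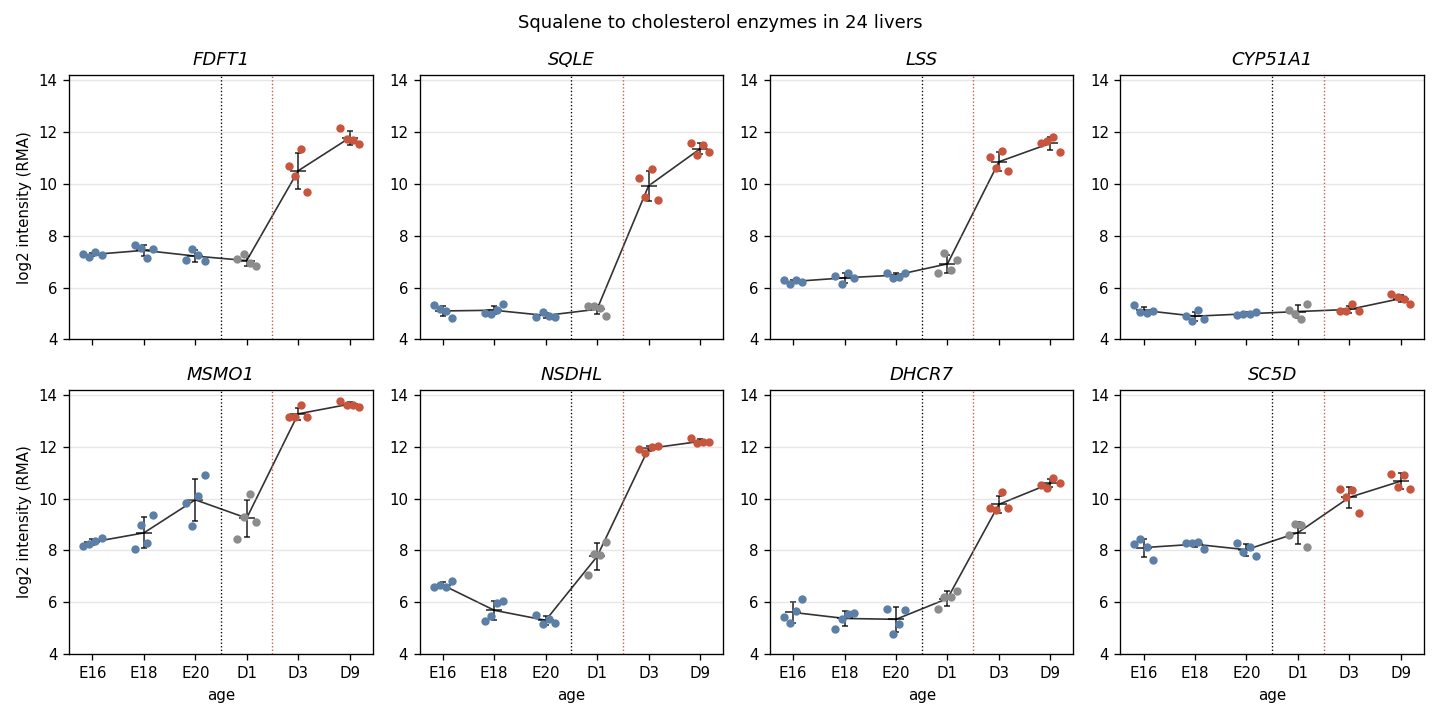
Levels of 8 squalene to cholesterol enzymes in 24 livers. Each panel plots 1 gene, with age on the x axis and log2 intensity (RMA) on the y axis; points are single livers in order of replicate 1 to 4 (blue embryos, grey unfed D1, red fed D3 and D9), bars are the mean and SD of 4, the black dotted line marks hatch and the red dotted line the first feed. SQLE averaged 9.92 at D3 and 5.16 at D1, while CYP51A1 stayed between 4.72 and 5.73 on all arrays.

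FDFT1, squalene synthase, commits farnesyl diphosphate to sterols. The mean level was 7.27, 7.43 and 7.21 in E16, E18 and E20 embryos, then 7.04 in D1, 10.50 in D3 and 11.77 in D9 hatchlings. D3 livers had 10.68, 10.30, 11.33 and 9.69 (replicates 1 to 4), against 7.10, 7.28, 6.94 and 6.84 in D1 livers. Every D3 liver was above every D1 liver, and above every embryo, whose highest value was 7.63. The difference was 3.46 ± 0.22 (SE, n = 4 per age, limma adjusted p = 2.3e-10), an 11.0-fold change. D9 livers had 12.16, 11.72, 11.68 and 11.52, all above the D3 livers, and this second rise of 1.27 was called (adjusted p = 0.00108). Over hatch, D1 vs. E20, the ratio was -0.17 with a 95% interval of -0.64 to 0.29.

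SQLE, squalene epoxidase, performs the first oxygenation and is known as a rate-limiting step. It was close to the background guide in all embryos (4.83 to 5.35) and at D1, where the livers had 5.27, 5.28, 5.20 and 4.90. D3 livers had 10.24, 9.49, 10.59 and 9.36, and D9 livers had 11.56, 11.11, 11.49 and 11.22, so that the 3 sets of livers did not overlap. The ratio was 4.76 for D3 vs. D1, 27.0-fold (adjusted p = 4.4e-14), and 1.42 for D9 vs. D3 (adjusted p = 6.1e-05). A second SQLE probe set gave 10.19 to 11.50 in D3 livers, against 4.06 to 4.64 in D1 livers, and 6.47 for D3 vs. D1 (adjusted p = 4.9e-16). Both probe sets moved alike, and the size of either ratio is limited by the low D1 level.

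LSS, which folds squalene epoxide into lanosterol, had 11.04, 10.61, 11.26 and 10.48 in D3 livers, against 6.57, 7.34, 6.69 and 7.05 in D1 livers. The ratio of 3.94 was a 15.3-fold difference (adjusted p = 1.1e-13). Its other probe sets rose by 4.58 and by 1.97, so that the direction was shared by all 3 while the size was not. Over hatch the D1 livers lay just above the E20 livers (6.56, 6.37, 6.42 and 6.57) with no overlap, but the ratio of 0.43 was not called (adjusted p = 0.116). At D9 the livers reached 11.57, 11.64, 11.82 and 11.22, overlapping D3. That ratio of 0.71 passed the p limit (adjusted p = 0.0128) and missed the size limit, whereas the other LSS probe sets gave 0.81 and 0.83, both called.

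CYP51A1, lanosterol demethylase, removes the first methyl group and is the cytochrome P450 of the pathway. Its single probe set read 5.08, 5.10, 5.35 and 5.10 in D3 livers, against 4.78 to 5.37 in D1 livers. These values overlap fully. The 95% interval of the D3 vs. D1 ratio, -0.15 to 0.31, leaves out the other 7 genes' ratios on probe sets of highest mean. It takes in those of the second probe sets of DHCR7 (0.17) and SC5D (0.24). D9 livers (5.73, 5.63, 5.56 and 5.38) were all above D3 livers, and all above E20 livers (4.92, 4.99, 4.96 and 5.07). The D9 vs. E20 ratio of 0.59 had an adjusted p of 0.00055 but was under the size limit. All 24 values lay between 4.72 and 5.73, near the guide to background, and whether this probe set reads the liver transcript was not tested.

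MSMO1, the methylsterol monooxygenase that starts removal of the next methyl groups, was the 1 member called between E18 and E20. Its levels were 8.19, 8.27, 8.36 and 8.48 at E16, 8.07, 8.97, 8.29 and 9.37 at E18, and 9.84, 8.95, 10.10 and 10.92 at E20. It was called higher at E20, as were 2.4% of all genes. The ratio was 1.28 ± 0.34 (SE, adjusted p = 0.0208), and the livers of both ages overlapped. The call was lost without any 1 of E18 replicates 1 and 3 and E20 replicates 3 and 4, with adjusted p between 0.053 and 0.1. At D1 the livers had 8.44, 9.28, 10.17 and 9.10, a ratio of -0.71 to E20 (adjusted p = 0.237). The spread was wide at these ages, with SDs of 0.81 at E20 and 0.71 at D1. In D3 livers MSMO1 stood at 13.15, 13.13, 13.62 and 13.16, above all D1 livers by 4.02 in the mean, 16.2-fold (adjusted p = 2.3e-08). D9 livers (13.78, 13.62, 13.63 and 13.54) overlapped D3 livers, with a ratio of 0.37 that was not called.

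NSDHL, the sterol dehydrogenase that works with MSMO1 to strip methyl groups, fell in the embryo and rose over hatch before it rose again with feeding. E18 livers had 5.30, 5.47, 5.96 and 6.06, all below the E16 livers at 6.59, 6.65, 6.59 and 6.83. This fall of 0.97 (adjusted p = 0.00625) was the 1 call in the E18 vs. E16 comparison, in which 1.37% of all genes were called lower and 0.215% higher, with no member called higher. D1 livers had 7.04, 7.87, 7.84 and 8.32, against 5.52, 5.16, 5.37 and 5.19 in E20 livers. The ages did not overlap, and the ratio of 2.46 ± 0.19 was a 5.50-fold rise over hatch (adjusted p = 9.1e-09), 53rd of 13009 genes. D3 livers then had 11.93, 11.78, 11.98 and 12.04, a further 4.16 above D1, 17.9-fold (adjusted p = 3.4e-13). D9 livers (12.32, 12.14, 12.16 and 12.20) were all above D3 livers, but the ratio of 0.27 was not called (adjusted p = 0.604). NSDHL was also the 1 member whose 12 hatchling livers all lay above its 12 embryo livers, as they did for 1.41% of all genes.

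DHCR7, which makes cholesterol from its last precursor and also consumes the precursor of vitamin D, had 9.64, 9.58, 10.26 and 9.64 in D3 livers, against 5.74, 6.22, 6.19 and 6.45 in D1 livers. The ratio was 3.63, 12.4-fold (adjusted p = 8.3e-11). Over hatch, D1 livers against E20 livers (5.75, 4.78, 5.15 and 5.72), DHCR7 was called higher by 0.80 (adjusted p = 0.0220), although D1 replicate 1 overlapped E20. That call was lost without E20 replicate 2 or 3 or without D1 replicate 2 or 4, with ratios of 0.61 to 0.78. D9 livers (10.52, 10.42, 10.78 and 10.61) were all above D3 livers, and the ratio of 0.80 was called (adjusted p = 0.0396), a call that held with 1 array of these ages left out only for D3 replicate 3 and was lost without both arrays that stood apart (adjusted p = 0.085). A second DHCR7 probe set read 3.78 to 4.21 on all arrays, under the background guide, and gave no call.

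SC5D, the desaturase that acts just before DHCR7, had the smallest rise among the 7 called genes. D3 livers had 10.36, 10.05, 10.31 and 9.46, against 8.59, 9.03, 8.99 and 8.13 in D1 livers. The ages did not overlap, and the ratio was 1.36 ± 0.21 (SE), 2.57-fold (adjusted p = 0.00018). D1 livers were above E20 livers (8.30, 7.92, 8.12 and 7.77) by 0.66 in the mean, which was not called (adjusted p = 0.0563). D9 livers had 10.95, 10.45, 10.93 and 10.36, with a ratio to D3 of 0.62 (adjusted p = 0.123). A second SC5D probe set read 5.20 to 5.97 on all arrays and gave 0.24 for D3 vs. D1 (adjusted p = 0.13).

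**Figure D2:**
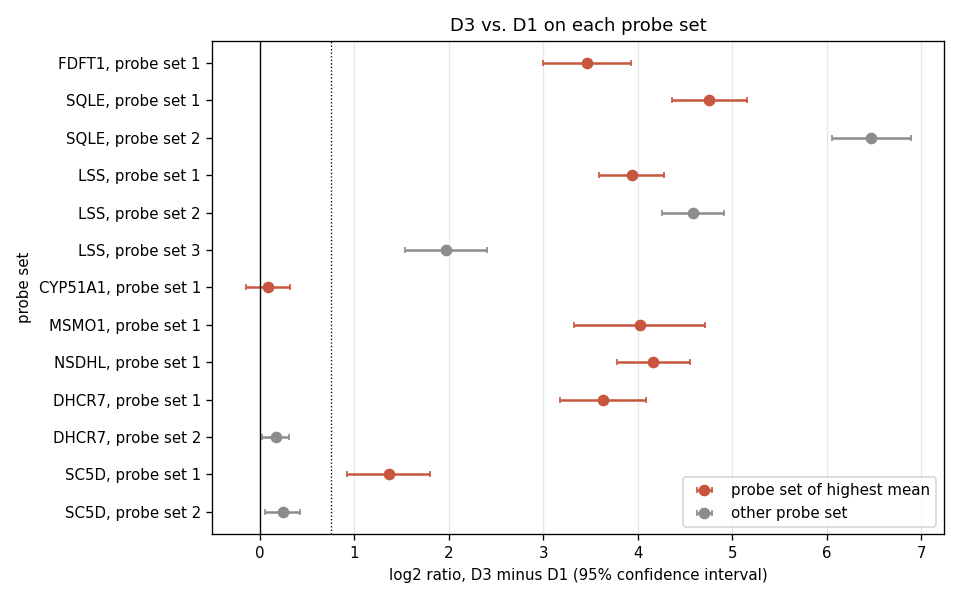
D3 vs. D1 on each of 13 probe sets. The x axis is the log2 ratio, D3 minus D1, with its 95% confidence interval (n = 4 livers per age); red marks the probe set of highest mean for its gene, grey the other probe sets, and the dotted line the size limit of 0.75. Of 13 probe sets, 10 lie above the limit, and CYP51A1 and the second probe sets of DHCR7 and SC5D do not.

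The timing of each step was then set against hatch and feeding. At hatch, D1 vs. E20, 2 of 8 members were called higher (NSDHL and DHCR7) and none lower, beside 3.44% of all genes called higher, and the median ratio of the members was 0.34. Over the first feed, 7 of 8 were called. Between D3 and D9, FDFT1, SQLE and DHCR7 were called higher, 3 of 8 beside 0.969% of all genes, and the median was 0.67. Livers of D9 lay above those of D3 without overlap for 5 of 8 genes, these 3 with CYP51A1 and NSDHL, which were not called, beside 6.05% of all genes without overlap in that direction.

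The change over feeding was larger than that over hatch for 6 of the 8 genes by a direct test of the difference, which called 2.24% of all genes in that direction. The excess of the feeding step over the hatch step was 4.72 for MSMO1 (adjusted p = 2.9e-05), 4.51 for SQLE (adjusted p = 8.6e-09), 3.64 for FDFT1 (adjusted p = 3.7e-06), 3.50 for LSS (adjusted p = 6.3e-08), 2.83 for DHCR7 (adjusted p = 9.1e-05) and 1.70 for NSDHL (adjusted p = 0.00302). For SC5D it was 0.70 with a 95% interval of -0.06 to 1.47, and a difference between its steps was not shown (adjusted p = 0.425). The D1 livers enter both steps, so a high or low D1 mean moves them in opposite directions. The steps differ in length, and neither these differences nor the shares of each step given below were set against elapsed time.

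**Figure D3:**
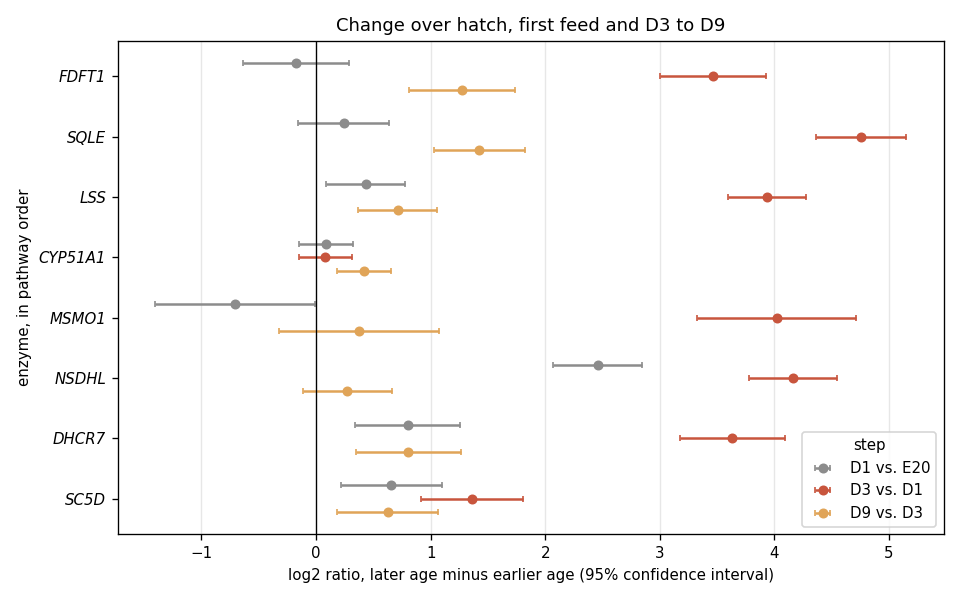
Change of each enzyme over hatch, first feed and D3 to D9. The x axis is the log2 ratio, later minus earlier age, with its 95% confidence interval (n = 4 livers per age), and the y axis lists the genes in pathway order; grey is D1 vs. E20, red D3 vs. D1 and yellow D9 vs. D3. NSDHL has a hatch step of 2.46, and for SC5D the 3 steps (0.66, 1.36 and 0.62) lie closer together than for the other called genes.

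From E20 to D9 the same 7 genes were called higher (7 of 8, beside 5.91% of all genes), and D9 livers lay above E20 livers without overlap for all 8, CYP51A1 included though not called, beside 13.8% of all genes. D9 over E20 was 119-fold for NSDHL, 85.7-fold for SQLE, 37.7-fold for DHCR7, 33.9-fold for LSS, 23.6-fold for FDFT1, 12.9-fold for MSMO1 and 6.24-fold for SC5D. The other probe sets gave 246-fold for SQLE, 52.1-fold and 8.13-fold for LSS, 1.13-fold for DHCR7 and 1.27-fold for SC5D. The order of the genes thus depends on the probe set taken. Shares of the D9 vs. E20 change were taken on the log2 scale with 1 probe set per gene. The hatch step held 35.7% for NSDHL, 24.9% for SC5D, 15.3% for DHCR7 and 8.53% for LSS. It held 3.77% for SQLE, -3.82% for FDFT1 and -19.1% for MSMO1, whose D1 means were near or below E20. The feeding step held between 51.5% (SC5D) and 109% (MSMO1), with a median of 74.0% over the 7 genes, and D3 to D9 held a median of 15.4%. On linear intensities the median shares were 1.14% for hatch, 55.0% for feeding and 40.9% for D3 to D9, since the last step starts from a high level. The linear hatch share was 4.03% for NSDHL and 11.5% for SC5D, the reverse of their order on the log2 scale. D3 to D9 then held more than feeding for SQLE (61.4% against 38.4%) and FDFT1 (58.0% against 42.5%). For the other called genes feeding held more on both scales. When the 3 hatchling ages were set against the 3 embryonic ages, the 7 genes were again called higher (beside 5.42% of all genes). Their ratios ran from 1.68 for SC5D to 4.74 for NSDHL. The other probe sets gave 4.92 for SQLE, 3.69 and 1.79 for LSS, 0.12 for DHCR7 and 0.24 for SC5D.

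Among D1 and D3 hatchlings, the median SD within an age was larger for these transcripts than for all genes. The genes compared were not matched for level. At D3 the median SD of the 7 called genes was 0.37, beside 0.15 over all genes, and at D1 it was 0.35, beside 0.16. The gap was smaller at E18 (0.22, beside 0.18), E20 (0.22, beside 0.17) and D9 (0.21, beside 0.14), and at E16 the members varied less than the median gene (0.12, beside 0.16). FDFT1 and SQLE had the widest spread at D3, with SDs of 0.69 and 0.59, and NSDHL the narrowest at 0.11. In some livers the deviations ran one way. D3 replicate 3 was above the age mean for 7 of 7 genes, by 0.44 on average, while D3 replicates 2 and 4 were above it for 1 of 7 each, with means of -0.19 and -0.35, and D3 replicate 1 for 4 of 7. D1 replicate 2 was above the D1 mean for 7 of 7 genes (0.19), while D1 replicates 1, 3 and 4 were above it for 2, 5 and 3 of 7. The embryo livers were above their age means for 2 to 5 of 7 genes. The 7 mevalonate genes ordered the D3 livers as the members did, with mean deviations of 0.05, -0.02, 0.14 and -0.17 for replicates 1 to 4. The 8 fatty acid synthesis genes ordered them otherwise, with 0.22, 0.17, -0.13 and -0.26, as did the 11 sterol sensing and uptake genes, with 0.08, -0.04, -0.02 and -0.02. At D1 and D9 the mevalonate genes did not share the members' order. D9 replicates 1 to 4 had -0.14, -0.09, 0.22 and 0.01 for mevalonate genes and 0.15, -0.10, 0.10 and -0.16 for members.

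**Figure D4:**
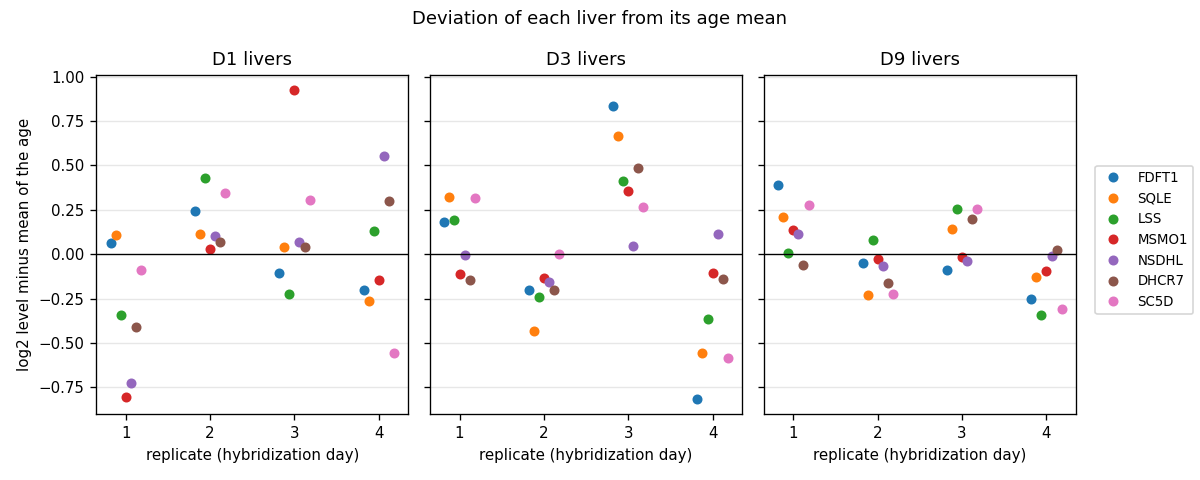
Deviation of each hatchling liver from its age mean. Each panel is 1 age, with the replicate (hybridization day) on the x axis and the log2 level minus the mean of the 4 livers of that age on the y axis; each colour is 1 of 7 genes. All 7 points of D3 replicate 3 lie above 0, and FDFT1 and SQLE deviate most.

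Within hybridization days, the D3 minus D1 difference was 1.02 to 5.38 for the 7 called genes, whose D3 and D1 livers do not overlap, so that its sign on each day was already given. CYP51A1 was higher at D3 on 2 of 4 days (-0.27 to 0.57). D1 livers exceeded E20 livers on all 4 days for SQLE (by 0.04 to 0.42) and SC5D (by 0.29 to 1.11), whose livers overlap. They also did for LSS (by 0.02 to 0.97) and NSDHL, whose livers do not overlap. FDFT1, MSMO1 and DHCR7 were higher at D1 on 1, 2 and 3 days. The share of all genes higher on all 4 days was not computed. Nor was the share of all genes without overlap for D3 vs. D1 or D1 vs. E20. Over the 24 arrays the 21 pairs of the 7 called genes had Pearson correlations of 0.893 to 0.992 (median 0.955), which the shared change with age largely sets. After the age means were taken out, the correlations ran from -0.19 to 0.79 with a median of 0.351 and 16 of 21 above 0, highest for FDFT1 with SQLE (0.793) and SQLE with SC5D (0.643) and lowest for FDFT1 with NSDHL. These are descriptions, as all genes share the same arrays.

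The enzymes before squalene gave a mixed picture. Of 7 genes measured in a list of 9 for the mevalonate pathway, 3 were called higher at D3 than at D1, beside 2.63% of all genes. FDPS, which makes farnesyl diphosphate, rose by 2.98, ACAT2, which joins acetyl-CoA units, by 2.83, and MVD, which makes isopentenyl diphosphate, by 1.39. The median of the 7 was 0.36, below the 3.78 of the squalene to cholesterol enzymes, and the ACAT2 probe sets ranged from 0.43 to 2.83. HMGCS1, the synthase that makes HMG-CoA, was not called at D3 vs. D1 (0.14, adjusted p = 0.921). It was named after its values were seen, as the 1 gene of the list called higher at E20 than at E18, by 3.78 (adjusted p = 5.3e-06), the comparison in which MSMO1 rose. Of 3 other enzymes after squalene, HSD17B7, the partner of NSDHL in demethylation, was called higher at D3 by 3.72 and ERG28, known from yeast as a scaffold of that complex, by 1.09. ERG28 was also called higher at E20 than at E18, by 1.28 (adjusted p = 1.0e-06), the 1 gene of its list called there. LBR, a sterol reductase of the nuclear envelope, gave 0.46 (adjusted p = 0.0107), under the size limit. Its 4 probe sets ranged from -0.20 to 0.46.

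Among 11 genes of sterol sensing and uptake, 3 were called higher at D3 than at D1 and none lower, beside 2.63% of all genes called higher. STARD4, a carrier of cholesterol between membranes, rose by 3.11, SREBF2, the activator of the pathway, by 2.23, and INSIG1, which holds the SREBF2 precursor in the endoplasmic reticulum, by 1.77. At hatch, INSIG1 (0.90) and STARD4 (0.83) were called higher, in the same comparison as NSDHL and DHCR7. At E20 vs. E18, INSIG1 was called lower (-2.06), beside 1.83% of all genes called lower. Of 13 genes of sterol use and export, none was called higher at D3 than at D1 and 4 were called lower, beside 1.88% of all genes called lower. These were ABCG5 (-1.69) and ABCG8 (-1.45), which together form the pump that puts sterol into bile, LCAT (-1.30), which esterifies cholesterol in plasma, and CYP7B1 (-1.04), a hydroxylase of oxysterols. Over hatch the same list held 4 genes called higher and none lower, beside 3.44% of all genes called higher. They were named after their values were seen: CYP7A1 (3.86), the rate-limiting enzyme of bile acid synthesis, ABCG8 (2.74), CYP8B1 (1.75), a hydroxylase of bile acid synthesis, and ABCG5 (1.65). From E20 to D9, the calls were 6 higher of 7 mevalonate genes, 3 of 3 other enzymes after squalene and 4 of 11 sensing and uptake genes, none lower in these lists. Of 13 use and export genes, 3 were called higher and 1 lower. Over all genes, 5.91% were called higher and 4.94% lower.

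**Figure D5:**
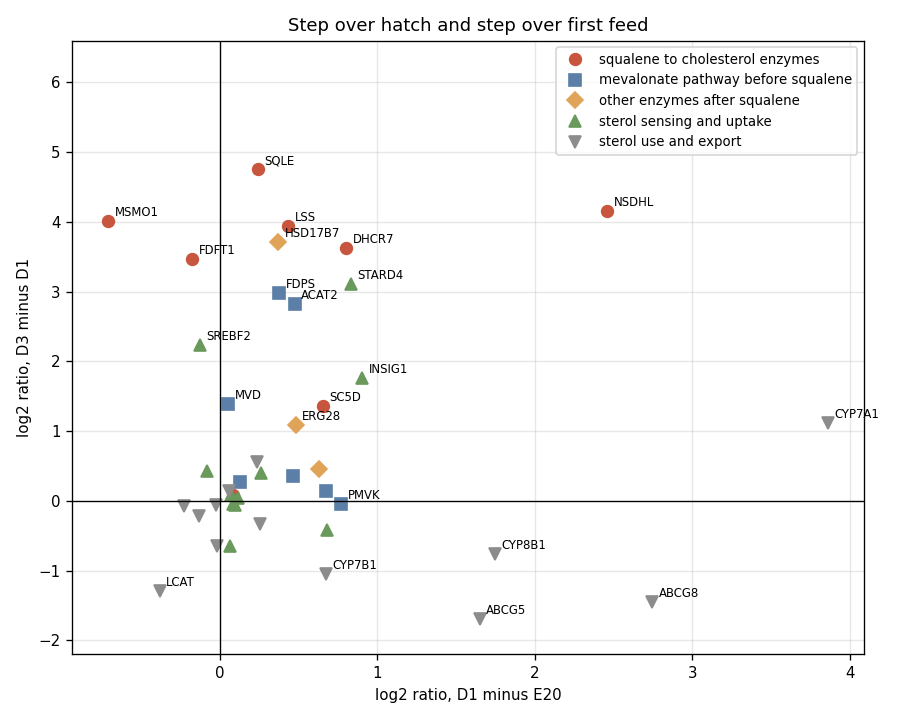
Hatch step and feeding step of the squalene to cholesterol enzymes and of related lists. The x axis is the log2 ratio D1 minus E20, the y axis the log2 ratio D3 minus D1, and each point is 1 gene, by list; genes called in either step are among those named. Of the red circles, CYP51A1 lies near 0 on both axes, SC5D at 1.36 on the y axis and the others above 3, and NSDHL alone among them lies beyond 2 on the x axis.

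The genes most like the 8 enzymes in pattern were found by the Pearson correlation over 24 arrays with the mean of the members' scaled levels. The 10 closest were FDPS (0.987), HSD17B7 (0.987), FADS1 (0.985), SCD (0.984), FADS2 (0.983), UCHL1 (0.982), ACSBG2 (0.981), AACS (0.981), ACAT2 (0.980) and PNPLA3 (0.979). Of these, 3 belong to the sterol lists and 1, SCD, to the fatty acid list, while 6 are in no list used here. FADS1 and FADS2 are desaturases of polyunsaturated fatty acids, and AACS turns acetoacetate into an acyl-CoA for lipid synthesis. Their D3 vs. D1 ratios were 3.73, 5.35 and 3.15.

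Markers of other cells were read beside these results. The hepatocyte list had a mean level of 13.84 to 13.90 in D3 livers and 13.87 to 13.96 in D1 livers, and none of its 10 genes was called in that comparison. Of 6 erythroid genes, 3 were called higher at D3, with a mean level of 8.53 to 8.95 at D3 and 7.81 to 8.33 at D1. Of 4 granulocyte genes, 3 were called lower, with 6.06 to 8.62 at D3 and 8.55 to 10.41 at D1. Of 5 endothelial genes, 1 was called lower, with 8.39 to 8.79 at D3 and 8.95 to 9.18 at D1. None of 7 stellate cell and fibroblast genes was called, with 9.32 to 9.52 at D3 and 9.60 to 9.79 at D1. Of 8 macrophage and Kupffer cell genes, 1 was called higher. No gene of the lymphocyte, bile duct, heart, kidney and gonad, or pancreas and gut lists was called. The part of these cells in the D3 vs. D1 differences of the sterol enzymes was not tested.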

How the data were processed

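Total liver RNA was hybridized to Affymetrix chicken genome arrays. The deposited log2 intensities were made by the authors with RMA, which corrects background, normalizes by quantiles over all arrays and summarizes probes, so that a shift shared by all genes is removed and ratios of dim probe sets are compressed. The submitters' processing notes name limma 3.30.13. Of 38535 probe sets, 96 controls were left out; 27168 had 1 gene symbol in the platform annotation, 177 several and 11094 none. Here limma 3.58.1 in R 4.3.3 was fitted with 1 mean per age over 24 arrays (18 residual degrees of freedom), with Benjamini-Hochberg adjustment over 38439 probe sets, and was tested on simulated data. Percentages of all genes use 1 probe set for each of 13009 genes. The replicate number was taken as the hybridization day, which the sample titles do not state. Deviations of livers with the same number had a mean correlation of 0.07 over 60 pairs. Over 180 pairs of different numbers and ages it was -0.02. Named genes were the members, up to 4 called genes of each list with the largest D3 vs. D1 ratio, the genes next to a member in the pathway, and the 10 most alike in pattern. The members and gene lists were chosen with earlier results of these data known. The number of arrays limits the precision. No sequences were used.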

Additional observations from a re-analysis of the deposited data

Results flagged for a closer look

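In the D3 livers, replicate 3 stood apart from the other 3 for CYP51A1, MSMO1 and DHCR7. The gap to its nearest neighbour took 0.931 of the whole range for CYP51A1 (5.35, with 5.10 next), 0.940 for MSMO1 (13.62, with 13.16 next) and 0.913 for DHCR7 (10.26, with 9.64 next). These were 3 of 48 groups of 4 livers examined, and chance marks about 5% of groups.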

How the results depend on the processing

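The counts for D3 vs. D1 (7), D9 vs. E20 (7), hatchlings vs. embryos (7), E18 vs. E16 (1) and the feeding step minus the hatch step (6) did not change under the alternatives run or with any 1 array left out, and no called ratio changed sign. A paired fit with the replicate block (hybridization day) gave 7 members for D3 vs. D1 and 2 for D1 vs. E20 and changed no other count. For E20 vs. E18, the count of 1 became 0 when only the arrays compared were fitted (MSMO1 adjusted p = 0.13), and was 0 to 1 with 1 array left out. For D1 vs. E20, the count of 2 became 1 with array weights, with only the arrays compared (DHCR7 adjusted p = 0.073) and with probe sets of a gene averaged, and was 1 to 2 with 1 array left out. Without E20 replicate 2, MSMO1 was called lower at D1 (-1.04), and without D1 replicate 4, SC5D was called higher (0.84). The count of 3 for D9 vs. D3 was 2 to 4 with 1 array left out. LSS joined it under cyclic loess (0.76), with the probe set of largest variance (0.81) and with probe sets of a gene averaged (0.79). It also joined without D3 replicate 1, D3 replicate 3 or D9 replicate 4. DHCR7 left it with probe sets of a gene averaged (0.42). With probe sets of a gene averaged, the D3 vs. D1 ratio was 1.90 for DHCR7 and 0.80 for SC5D, both still called, since each average takes in a probe set that was not called.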

Other observations

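Genes of fatty acid synthesis were called higher at D3 and, in part, already at D1. Of 8 measured, 7 were called higher at D3 than at D1 and none lower, beside 2.63% of all genes called higher. The median log2 ratio of the list was 2.89. THRSP, a regulator of lipogenesis, rose by 6.03, SCD, the stearoyl-CoA desaturase, by 5.58, ME1, a source of NADPH, by 4.20, and ELOVL6, an elongase, by 3.01. At hatch, D1 vs. E20, 4 of 8 were called higher, beside 3.44% of all genes. THRSP rose by 3.10, FASN, the fatty acid synthase, by 2.49, ACACA, the acetyl-CoA carboxylase, by 1.56 and ACLY, which makes cytosolic acetyl-CoA, by 0.79. These last 3 were named after their values were seen. At that step 1 of 3 ACACA probe sets (0.13 to 1.56) and 1 of 2 ACLY probe sets (0.63 to 0.79) were called. For D9 vs. D3 the median ratio of the list was 0.34.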
